A study of Homo sapiens with 7 samples.

Results

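The MYC locus and its distal region were taken as a window of 2000 kb on chromosome 8 of hg19, from 127500001 to 129500000, with MYC, PVT1, CCAT1, CASC11 and POU5F1B as its named genes. The window was set by position and not by any measured value. It held 232 of the 240889 intervals in 6 deposited PIXUL-ChIP-seq lists, that is 83 for H3K4me1, 7 for H3K4me3, 46 for H3K9Ac, 9 for H3K27me3, 52 for H3K36me3 and 35 for CTCF, and 32 of 64439 annotated genes. The lists came from HCT116 cells, a human colorectal carcinoma line, untreated as far as the labels say, cultured in a microplate at 200000 cells per well and sheared in the same plate by the PIXUL sonicator for 6 min in 100 μl. Each antibody was used on a single well and gave 1 library, so no value below has a replicate error and no test between conditions was possible. A library for H3K27Ac also belongs to the study and was not analysed here. Each interval carries its fold enrichment over local background and the −log10 of its q-value, both as deposited by the authors.

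MYC encodes a transcription factor that binds DNA as a partner of MAX and drives growth, ribosome production and cell division. In colorectal cells it is a target of Wnt signalling, which acts through TCF/LEF factors, and the long stretch without coding genes upstream of it holds enhancers and long non-coding RNAs named for colon and prostate cancer. H3K4me3 and H3K9Ac mark active promoters, H3K4me1 marks enhancers and the flanks of promoters, H3K36me3 lies over transcribed gene bodies, H3K27me3 is the Polycomb mark of repressed genes, and the zinc-finger factor CTCF occupies domain borders and loop anchors.

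Intervals were called past the limits where they met both limits of the study's Methods. These were a q-value below 1e-03 with a fold enrichment above 2 for H3K4me1 and H3K27me3, and a q-value below 1e-10 with a fold enrichment above 5 for the other marks. The labelled cell type was checked by H3K4me3 at the transcription start sites (TSS, the base itself plus 1000 bp on each side) of marker genes. Of 10 epithelial and colon markers, 6 had H3K4me3 past the limits, among them EPCAM (fold enrichment 30.4), CDX2 (31.6, the highest) and HNF4A (7.92, the lowest). This share, 60%, lies near the 59.1% of all coding genes and does not by itself tell the cell type. KRT20, VIL1 and CDX1 had no H3K4me3 interval at the TSS, and LGR5, a stem cell marker, had 1 that was not past the limits (6.32). Of 7 markers of other cells 1, the fibroblast gene COL1A1, had H3K4me3 past the limits (9.21), and PECAM1 had no entry of that symbol in the annotation.

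Intervals of H3K4me1, H3K9Ac and H3K36me3 covered more of the region than of the genome, and those of H3K27me3 less. Deposited H3K4me1 intervals covered 13.1% of it, against 3.49% of the whole genome, and those of H3K9Ac covered 9.08% against 2.65%. H3K36me3 covered 12.7% against 6.61%. H3K4me3 covered 0.579% against 0.920%, and CTCF 1.39% against 1.13%. H3K27me3 covered 0.698%, against 7.16% of the genome. Set beside the other windows when the genome was cut into 1514 windows of 2000 kb, the region ranked 52 by length covered with H3K4me1 (262 kb, median 42.9 kb), 77 with H3K9Ac (182 kb, median 30.2 kb) and 259 with H3K36me3 (254 kb, median 92.0 kb). It stood at the middle for H3K4me3, at rank 763 with 11.6 kb against a median of 11.7 kb. For CTCF it ranked 438 (27.7 kb, median 19.2 kb) and for H3K27me3 986 (14.0 kb, median 48.5 kb). With only 3 coding TSSs the region is poor in genes. Among the 390 windows with 3 coding TSSs or fewer, it ranked 2 for H3K4me1, 2 for H3K9Ac, 1 for H3K36me3, 6 for H3K4me3, 8 for CTCF and 112 for H3K27me3. These gene-poor windows held little of any mark. Their median covered length was 1239 bp for H3K4me1, 631 bp for H3K9Ac and 5433 bp for CTCF. For H3K4me3, H3K27me3 and H3K36me3 it was 0 bp, so a rank above the middle says little there. How many of these windows lie in gaps of the assembly was not tested. Read depth was unknown for every library, and lengths were compared within a mark only. The copy number of the region in these cells was not tested, and its part in these lengths and ranks is unknown.

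Fewer of the region's intervals than of the whole lists passed the limits for H3K4me1, H3K9Ac and H3K4me3, also when the counting error was allowed for. For H3K4me1, 42 of 83 passed (50.6%, 95% Wilson interval 40.1 to 61.1%), against 63.9% of the whole list. For H3K9Ac, 7 of 46 passed (15.2%, 7.57 to 28.2%), against 37.2%. For H3K4me3, with few intervals, 3 of 7 passed (42.9%, 15.8 to 75.0%), against 79.1%. For CTCF, 17 of 35 passed (48.6%, 33.0 to 64.4%), against 54.8%. None of the 9 H3K27me3 intervals passed, where 2.81% of the list did, and none of the 52 H3K36me3 intervals, where 0.225% of the list did. The last 2 counts lie near these backgrounds and say little about the region. Fold enrichment ran from 2.42 to 3.27 for H3K27me3 and from 2.32 to 5.95 for H3K36me3. The H3K9Ac intervals past the limits were wide and low, with a median width of 12021 bp against 2944 bp in the list, and a median fold enrichment of 7.15 against 12.2. For H3K4me1 the median fold enrichment past the limits was 4.73 against 4.60, and for CTCF 9.96 against 10.4.

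**Figure D1:**
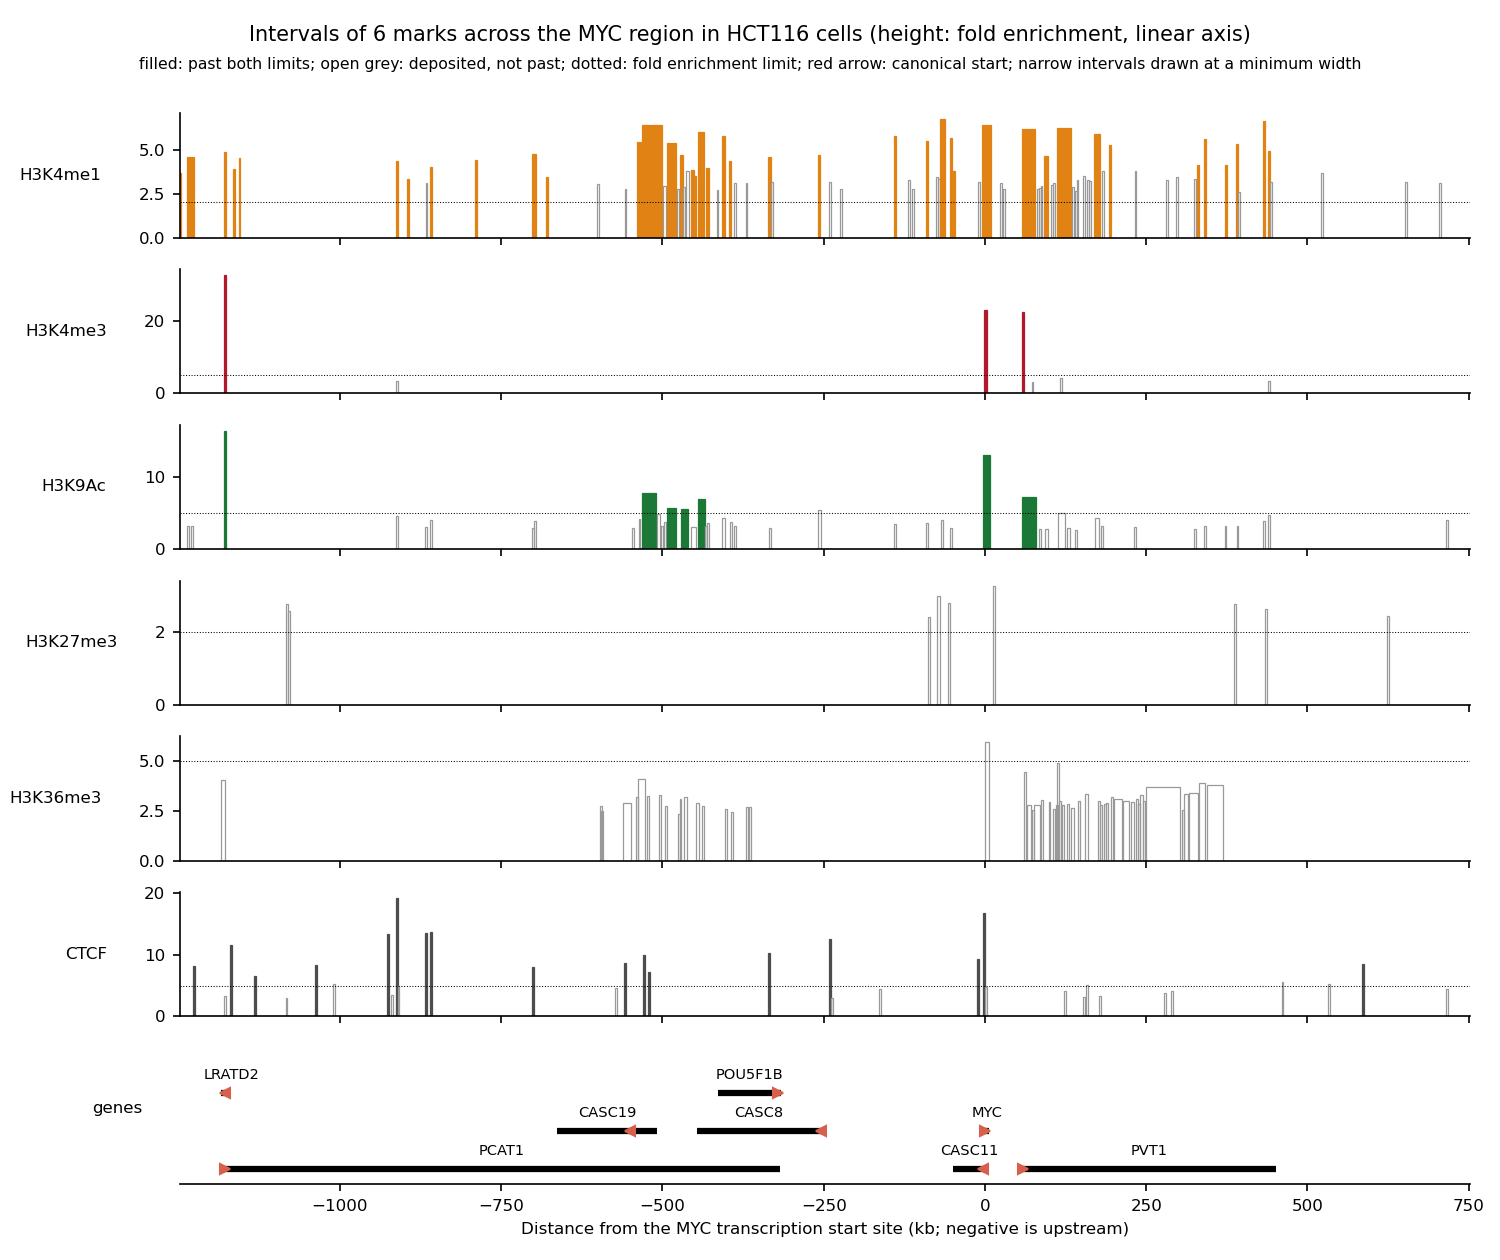
Fold enrichment (linear axis) of all 232 intervals by distance from the MYC start in kb, with 1 panel per mark and 1 library per mark. Filled bars are past both limits, open bars are not, and an open bar above the dotted fold enrichment limit missed the q-value limit. The 3 filled H3K4me3 bars lie at LRATD2, MYC and PVT1, and the filled H3K9Ac bars lie there and in a group around 500 kb upstream of MYC.

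At the limits themselves the values were close for H3K4me1 and farther apart for H3K9Ac and CTCF. The weakest H3K4me1 interval to pass by its q-value began at 128700186 within CASC11 (fold enrichment 3.80, −log10 q-value 3.25), and the strongest to fail began at 128981287 within PVT1 (3.79 and 2.93). For H3K9Ac the weakest to pass began at 128276625 (5.47 and 10.2) and the strongest to fail at 128490286, next to the start of CASC8 (5.42 and 8.66). For CTCF these were the intervals from 127615864 (6.49 and 12.7) and from 129280936 (5.27 and 7.0). H3K4me3 was separated by a wide gap, since the MYC interval had a −log10 q-value of 77.7 and the strongest to fail, within PVT1 from 128866327, had 3.93 (fold enrichment 22.8 and 4.21).

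MYC (ENSG00000136997) lies on the plus strand from 128747680 to 128755197, and its canonical transcript starts at 128748477 with exons from 128748477 to 128748869, from 128750494 to 128751265 and from 128752642 to 128755197. A single H3K4me3 interval covered the start, from 128746356 to 128751939, with a fold enrichment of 22.8. It reached 2121 bp upstream and 3462 bp downstream, over exon 1, intron 1 and exon 2. MYC stood out in the width of this interval and not in its fold enrichment, which is 1 value for the whole interval. At 5584 bp it ranked 89 among the 11923 coding genes with H3K4me3 past the limits at the TSS (59.1% of all coding genes), where the median width was 2061 bp and 99.3% were narrower. By fold enrichment it ranked 5815, next to the median of 22.5.

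H3K9Ac at MYC showed the same. Its interval, from 128744945 to 128756816, measured 11872 bp, covered the whole gene and ended 1619 bp past it. It ranked 279 by width among the 11796 coding genes with H3K9Ac at the TSS (58.5% of coding genes, median 3112 bp) and 6025 by fold enrichment, with 13.0 against a median of 13.1. How far the width of intervals depends on the depth of a library was not tested, nor how far their fold enrichment depends on their width.

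H3K4me1 was split around the MYC start. An interval from 128744561 to 128748135 (fold enrichment 6.37) ended upstream of it and another from 128750248 to 128758393 (6.41) began downstream, which left 2112 bp without H3K4me1, from 341 bp upstream to 1770 bp downstream of the start. Of the coding genes with H3K4me3 at the TSS, 41.7% had a start outside every deposited H3K4me1 interval, and 12.6% had, as MYC did, such a start with H3K4me1 past the limits within 5000 bp on both sides. H3K4me1 past the limits within 1000 bp of the TSS was found at 49.1% of all coding genes.

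Over the body of MYC lay an H3K36me3 interval, from 128749296 to 128754590, which covered 70.4% of the gene (fold enrichment 5.95, −log10 q-value 9.71). It passed the fold enrichment limit and just missed that of the q-value. Within the whole H3K36me3 list of 40010 intervals it ranked 140 by fold enrichment and 106 by q-value. It began inside the H3K4me3 interval and lay wholly within the H3K9Ac interval. Of the 90 H3K36me3 intervals of the list past the limits, 69 (76.7%) overlapped H3K4me3 past the limits and 70 (77.8%) H3K9Ac. These ranks therefore do not tell signal of the gene body from signal at the promoter. The nearest H3K27me3 interval began 12.9 kb downstream of the start, at 128761332. Its fold enrichment, 3.27, was the highest of that mark in the region, but its −log10 q-value was 2.44.

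CASC11 is a long non-coding RNA gene on the minus strand whose canonical start, at 128746213, lies 2264 bp upstream of that of MYC and points away from it. This start lay inside the strongest CTCF interval near MYC, from 128745995 to 128746701 (fold enrichment 16.8, −log10 q-value 47.5). The CTCF interval ended 1.78 kb upstream of the MYC start and overlapped the upstream end of the H3K4me3 interval. CASC11 therefore had 4 marks past the limits within 1000 bp of its start, namely H3K4me1, H3K4me3, H3K9Ac and CTCF, more than any other gene of the region, but the first 3 of these intervals were those of the MYC promoter. A further CTCF interval past the limits lay 9.87 kb upstream of MYC, within CASC11 (fold enrichment 9.32). Over the MYC start itself a broad CTCF interval, from 128748261 to 128751090, had a fold enrichment of 4.82 and did not pass.

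**Figure D2:**
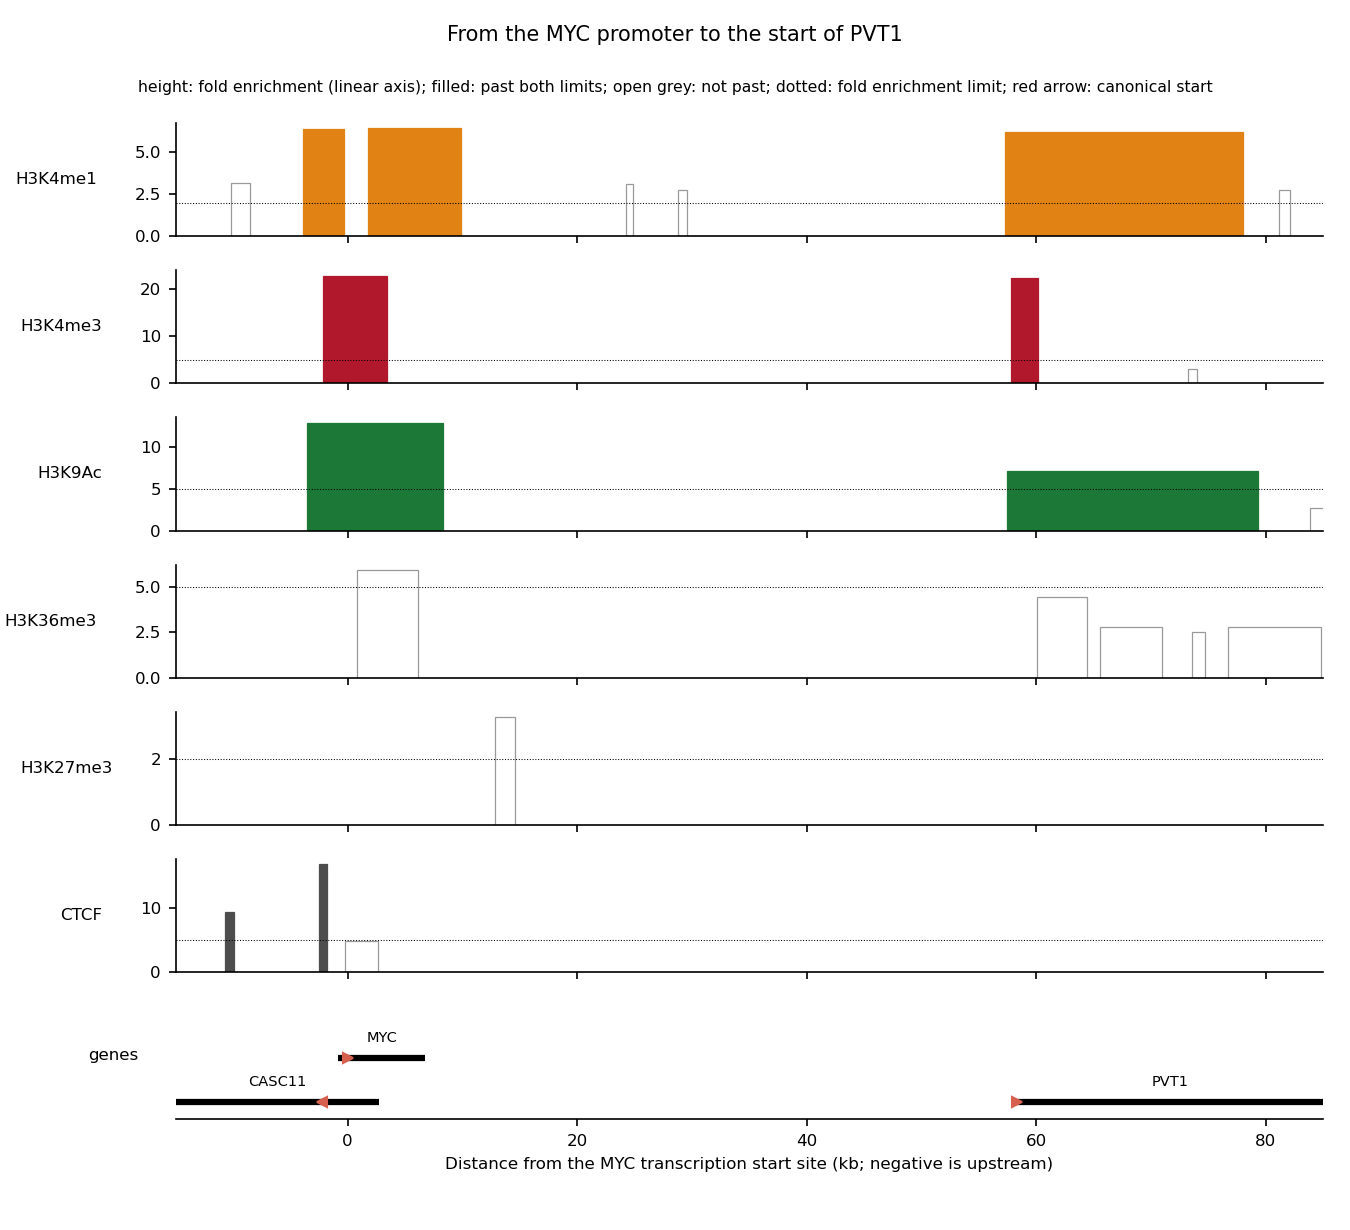
Fold enrichment (linear axis) of intervals from 15 kb upstream to 85 kb downstream of the MYC start in kb, 1 panel per mark. At MYC the filled H3K4me3 and H3K9Ac bars span a gap of 2112 bp between 2 H3K4me1 bars, and at PVT1 a wide H3K4me1 and H3K9Ac pair begins with a narrow H3K4me3 bar.

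PVT1 (ENSG00000249859) is a long non-coding RNA gene on the plus strand from 128806772 to 129199347, and its start at 128806787 lies 58310 bp downstream of that of MYC. At its start the H3K4me3 interval, from 128806290 to 128808633, had a fold enrichment of 22.3, close to the 22.8 of MYC, but measured 2344 bp. The H3K9Ac interval was the widest of that mark in the region, with 21852 bp from 128805959 and a fold enrichment of 7.15. An H3K4me1 interval of 20771 bp (6.19) covered nearly the same stretch, start included, so that PVT1 lacked the gap seen at MYC. No CTCF interval was listed within 1000 bp of the PVT1 start. The element formed by these intervals, 22060 bp, ranked 106 by width among 12390 elements with H3K4me3 in the genome, and the MYC element, 13833 bp, ranked 302 (median 3203 bp). An element is a run of intervals past the limits, of any mark, that overlap by at least 1 bp.

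The body of PVT1 differed along its length. Over the 196288 bp nearest the start, H3K4me1 covered 36.8% and H3K9Ac 25.6%, whereas over the remaining 196288 bp they covered 9.25% and 3.05%. H3K36me3 covered 45.0% and 53.0% of these parts, in 33 intervals over the whole gene, none past the limits. The widest of them, 52779 bp from 128997610, was the widest H3K36me3 interval of the region and ranked 179 by width in its list, with a fold enrichment of 3.69. The widest H3K4me1 interval within the gene body measured 21646 bp from 128859647 (6.24), and the H3K9Ac over it (4.97) missed the limits. PVT1 held 11 H3K4me1 intervals past the limits and 1 of H3K9Ac, that at its start. It held 6 deposited CTCF intervals and 0 past the limits. Of the genes annotated within its span, LINC02912, RNU1-106P, ENSG00000278275, RNU4-25P and the microRNA genes MIR1205 and MIR1207 had H3K36me3 below the limits as the only mark at the start, and MIR1208 had no mark. The 51574 bp between MYC and PVT1 held no CTCF and no H3K36me3 interval, and H3K4me1 covered 10.8% of them.

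Upstream of MYC, H3K4me1 and H3K9Ac lay densely in a stretch of 112 kb, from 128208590 to 128320634, that is 540 to 428 kb from the MYC start. Its bounds were set from the H3K4me1 intervals themselves, as the upstream cluster with the most H3K4me1 when joined across 10000 bp, and the next one, so the shares below describe it and were partly fixed by this choice. It makes up 5.60% of the region and held 32.5% of its H3K4me1 length and 42.5% of its H3K9Ac length. H3K4me1 covered 76.0% of the stretch and H3K9Ac 68.9%. H3K36me3 covered 26.3%, in 10 intervals below the limits. No H3K4me3 or H3K27me3 interval was listed in it.

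Within this stretch lay 4 elements with H3K4me1 and H3K9Ac and without H3K4me3, each more than 1000 bp from the TSS of any coding gene. They were 4 of the 51 elements of the region (7.84%, 95% Wilson interval 3.09 to 18.5%), against 1.32% of the 51708 elements of the genome, and no others of this kind were found in the region. The widest, from 128216823 to 128247237, overlapped CASC19 and PCAT1 and ranked 22 by width among the 685 such elements of the genome, with 30415 bp against a median of 5136 bp. It was also the widest H3K4me1 interval of the region. Its fold enrichment was 6.37 for H3K4me1, 7.78 for H3K9Ac and 9.96 for the stronger of its 2 CTCF intervals. The next, from 128256065 to 128269033, had 5.37 for H3K4me1 and 5.72 for H3K9Ac and ended within 1000 bp of the start of the long non-coding RNA gene ENSG00000287781. The element from 128275925 to 128288645 had 4.71 and 5.47, and that from 128304182 to 128313726, within CASC8, had 6.00 and 6.89 and held the pseudogene ENSG00000271509. Their widths ranked 121, 123 and 187 of 685, so that all 4 were wider than the median. Of the 4, the H3K9Ac of the widest alone passed a fold enrichment limit raised 1.5 times.

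**Figure D3:**
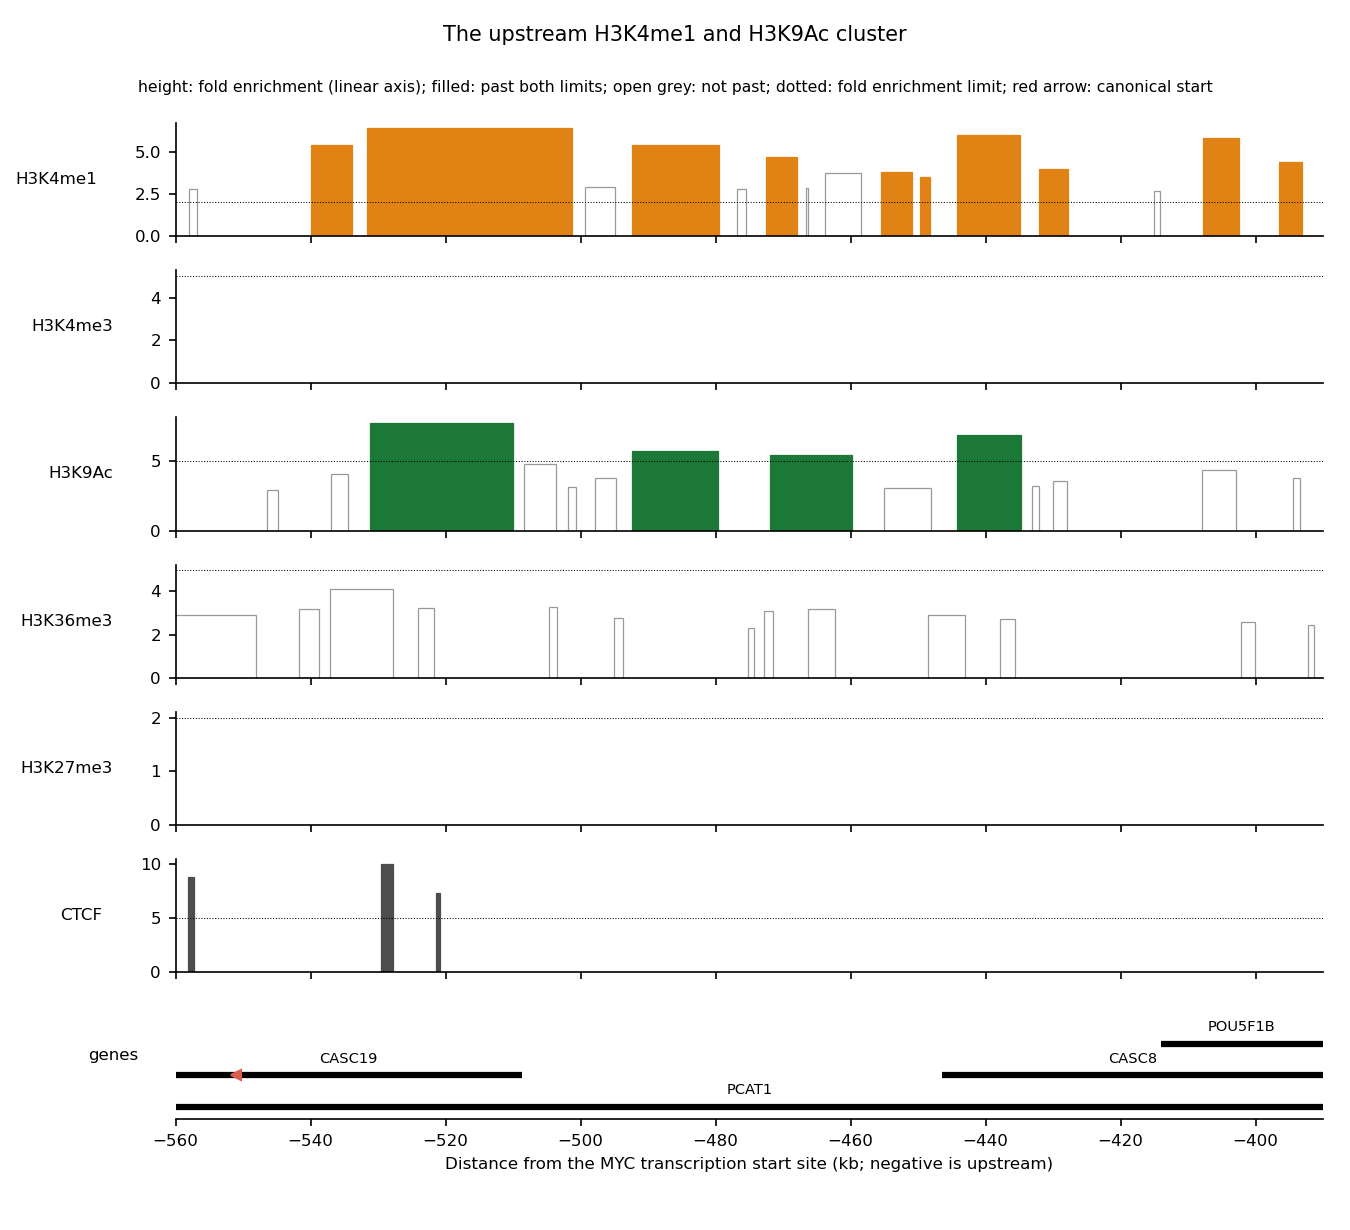
Fold enrichment (linear axis) of intervals from 560 to 390 kb upstream of the MYC start, 1 panel per mark. The 4 filled H3K9Ac bars each lie on an H3K4me1 bar, and the H3K4me3 and H3K27me3 panels are empty.

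When H3K9Ac intervals past the limits were joined across gaps of up to 10000 bp, the elements from 128256105 to 128288645 formed a cluster with 24762 bp of H3K9Ac, rank 96 of 11365 clusters in the genome. The PVT1 start ranked 131 with 21852 bp, the element over CASC19 140 with 21202 bp, and the MYC promoter 503 with 11872 bp. H3K4me1 joined in the same way gave a cluster from 128208590 to 128280511 with 54015 bp of the mark, rank 54 of 21613. With a joining distance of 20000 bp the upstream H3K9Ac intervals merged into 1 cluster of 55509 bp.

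CCAT1, a long non-coding RNA named for its level in colon cancer, is not in the hg19 annotation used. RefSeq on GRCh38.p14 lists it after CASC19 and before CASC21 and CASC8. RefSeq gives CASC19 a much shorter span than the annotation used here, so this order does not place CCAT1 against the elements, and no interval was assigned to it. CASC19, on the minus strand from 128084939 to 128239786, had no mark past the limits at its canonical start, at 128197488, and H3K36me3 below them. CASC8, on the minus strand from 128302053 to 128494384, had only the H3K9Ac interval of 5.42 that just failed. H3K36me3, the mark of transcribed bodies, covered 19.3% of CASC19, 5.16% of CASC8 and 6.00% of PCAT1, which spans CASC19 and overlaps part of CASC8, against 49.0% of PVT1, in each case without an interval past the limits. CASC19 also held 3 of the CTCF intervals past the limits.

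CCAT2 (128412644 to 128414395), also named for colon cancer, lies within an element of H3K4me1 (from 128412559 to 128416615, fold enrichment 4.60) and CTCF (from 128412619 to 128414595, 10.3). The CTCF interval contained the whole gene. H3K9Ac there had a fold enrichment of 2.95 and did not pass, and H3K4me3 was not listed. POU5F1B, a copy of the pluripotency gene POU5F1 without introns, has its canonical start at 128428112. No interval of any mark, past the limits or not, lay within 1000 bp of this canonical start. The annotated gene has 3 transcripts and runs from 128334428 to 128432311. It held H3K4me1 past the limits, among others from 128340702 (fold enrichment 5.78). An H3K4me1 interval below the limits (2.68) ended at 128334352, just before this gene. In hg19 its canonical transcript has 2 copies at an identity above 95%, the pseudogenes POU5F1P3 on chromosome 12 (96.3%) and POU5F1P4 on chromosome 1 (95.6%), and neither held a deposited interval. Only single alignments across 50% or more of the transcript were counted, so a copy split by introns, such as POU5F1 itself, could be missed. Whether reads shared between POU5F1B and its copies were lost in alignment was not tested. A search of hg19 for copies of the 69 intervals past the limits, at 95% identity or more across 50% or more of the interval, found none.

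LRATD2, at the far end of the region on the minus strand, starts 1177754 bp upstream of MYC and shares a promoter with PCAT1, a long non-coding RNA gene that runs the other way. This promoter had the highest H3K4me3 (fold enrichment 32.5, from 127569464 to 127571201) and H3K9Ac (16.3, from 127568211 to 127571581) of the region, with H3K4me1 at 4.84. Compared with those of MYC, its H3K4me3 and H3K9Ac intervals were narrower and had a higher fold enrichment. LRATD2 ranked 1324 by H3K4me3 fold enrichment among coding genes and 8203 by width (1738 bp). H3K36me3 below the limits (4.06) covered 82.0% of the LRATD2 body, and a CTCF interval at its start (3.26) did not pass.

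At the starts of all 32 annotated genes, H3K4me3 past the limits was found at 5, LRATD2, PCAT1, CASC11, MYC and PVT1, which share 3 intervals, where 25.6% of all annotated genes in the genome had it. H3K4me1 was past the limits at 11 starts (24.9% of all annotated genes), H3K9Ac at 6 (26.1%) and CTCF at 3 (7.99%). H3K27me3 (1.19%) and H3K36me3 (0.202%) were past them at 0. Of the 3 coding genes, LRATD2 and MYC had H3K4me1, H3K4me3 and H3K9Ac, POU5F1B had none of them, and 0 had CTCF past the limits within 1000 bp, where 13.6% of coding genes did. The other starts with a mark past the limits were those of CCAT2, ENSG00000287781 and ENSG00000271509, described above, RNU6-869P and ENSG00000253530 (both within 1 H3K4me1 interval, 4.59), ENSG00000286010 (H3K4me1, 6.71, the highest of the region) and ENSG00000286034 (CTCF, 8.46). In all, 12 genes had a mark past the limits at the start and 12 had no deposited interval there.

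CTCF lay almost wholly on the upstream side. Of the 17 CTCF intervals past the limits, 16 lay upstream of the MYC start and 1 downstream, where 25 and 11 deposited intervals lay, the interval over the start counted on both sides. The upstream side of the window is longer, 1248476 bp against 751524 bp. The highest (fold enrichment 19.3, −log10 q-value 55.2) lay 911 kb upstream from 127836407 to 127837266 within PCAT1. It was followed by that at CASC11 (16.8). Around the highest were those at 926 kb (13.5), 866 kb (13.5) and 859 kb (13.7). Farther out, beyond 1000 kb, lay those at 1225 kb (8.23), 1169 kb (11.6), 1132 kb (6.49) and 1037 kb (8.31). Nearer to MYC lay those at 700 kb (8.00), 557 kb (8.74), 528 kb (9.96), 521 kb (7.27), 334 kb at CCAT2 (10.3), 239 kb (12.5) and 9.87 kb (9.32). The only one downstream, from 129334794 to 129335374 (8.46), lay 586 kb away, next to the start of ENSG00000286034. Between the MYC start and it, PVT1 included, no CTCF interval passed.

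The 12-base core motif of CTCF was searched on both strands of each interval. An exact match was found in 3 of the 17 (17.6%, 95% Wilson interval 6.19 to 41.0%), where 22.4% of the CTCF list past the limits had it. The intervals were the highest, 911 kb upstream, with the motif on the plus strand, that 557 kb upstream, with the motif on the minus strand, and that at CASC11, with the motif on the plus strand 2122 bp upstream of the MYC start. With 1 mismatch allowed, 10 of the 17 had a match, but the share of the whole list at this setting was not computed. None of the 18 intervals below the limits had an exact match, where 7.52% of such intervals did in the list. Sequences of this chromosome are not shown.

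The 51 elements of the region were counted by the marks they joined and set beside those of the genome, without a test. H3K4me1 without H3K9Ac, H3K4me3 or CTCF made up 30 of them (58.8%, 95% Wilson interval 45.2 to 71.2%), against 32.2% in the genome. CTCF without H3K4me1, H3K4me3 or H3K9Ac made up 10 (19.6%, 11.0 to 32.5%), against 33.3%, and 4 joined H3K4me1 and CTCF (7.84%, against 6.69%). Elements with H3K4me3 made up 3 (5.88%, 2.02 to 15.9%), against 24.0%. Each H3K9Ac interval past the limits, 7 of 7, lay on H3K4me1 (82.7% in the list), but 3 of 7 lay on H3K4me3, where 93.4% of the list did. Of the 42 H3K4me1 intervals past the limits, 8 overlapped H3K9Ac past the limits (36.7% in the list) and 33 overlapped a deposited H3K9Ac interval of any strength. For overlap of any strength the share in the whole list was not computed. Elements with 3 marks or more numbered 4. They lay at the starts of LRATD2, MYC and PVT1 and, from 128216823 to 128247237, over part of the CASC19 span but not at its canonical start.

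The TCF/LEF motif CTTTGAT and the AP-1 motif TGACTCA were searched on both strands in pieces of 1000 bp. Neither motif contains the other. In the 4 upstream elements, 9 of 63 pieces held the TCF/LEF motif (14.3%, 95% Wilson interval 7.70 to 25.0%), near the 14.0% of 5155 pieces in all such elements of the genome, the 16.4% of the 2000 pieces of the region and the 16.6% of the chromosome. The AP-1 motif was in 13 of the 63 pieces (20.6%, 12.5 to 32.2%), against 23.3% in such elements of the genome, 16.4% of the region and 15.0% of the chromosome. In the distal H3K4me1 elements of the region without H3K9Ac, 22 of 107 pieces held TCF/LEF (20.6%, 14.0 to 29.2%, against 13.6% in the genome) and 32 held AP-1 (29.9%, 22.1 to 39.2%, against 34.5%). Per element, TCF/LEF matches numbered 2, 2, 3 and 2 and AP-1 matches 7, 2, 1 and 5, from the element farthest from MYC to the nearest. A match is a run of letters and not a bound site.

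In steps of 100 kb from the MYC start, H3K4me1 covered the most in 2 pairs of neighbouring steps. From 600 to 500 kb upstream it covered 37.6 kb and from 500 to 400 kb upstream 55.0 kb, whereas from the start to 100 kb downstream it covered 38.2 kb and from 100 to 200 kb 43.3 kb. H3K9Ac covered 31.3, 52.6, 37.4 and 21.4 kb in these steps. The 3 steps from 400 to 100 kb upstream, between the cluster and the promoter, had 9.43, 4.93 and 4.23 kb of H3K4me1. H3K36me3 was highest from 200 to 300 kb downstream, where it covered 86.7 kb, in the body of PVT1, and H3K4me1 there covered 3.31 kb. After the end of PVT1, over the last 300653 bp of the region, H3K4me1 covered 0.948%, H3K9Ac 0.101% and H3K36me3 none. No interval past the limits lay in the 145 kb from 129190045 to 129334793, before the downstream CTCF interval, nor in the 165 kb after it, from 129335375 to the end of the window. The longest stretch without any deposited interval, 85.9 kb, ran from 127960686 to 128046622 within PCAT1.

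**Figure D4:**
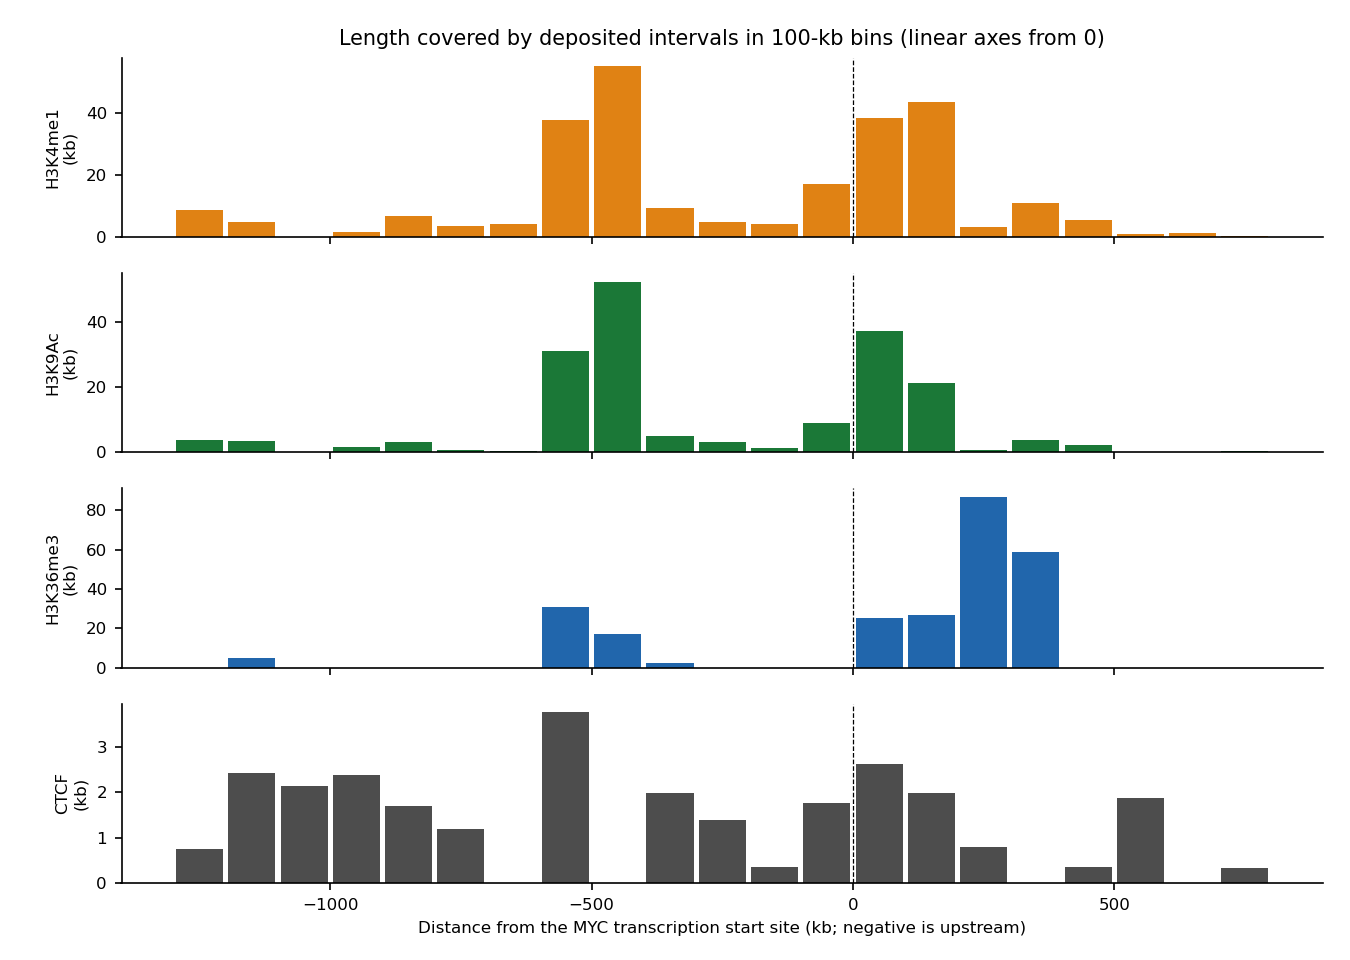
Length covered by deposited intervals of 4 marks (kb, linear axes from 0) in steps of 100 kb from the MYC start, with the outermost steps cut short by the window. H3K4me1 and H3K9Ac peak from 500 to 400 kb upstream (55.0 and 52.6 kb), H3K4me1 has a second rise from 100 to 200 kb downstream (43.3 kb) and H3K9Ac from the start to 100 kb (37.4 kb), and H3K36me3 peaks from 200 to 300 kb downstream (86.7 kb).

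The partners and relatives of MYC form a network of factors that bind the same DNA element. In it MAX is the partner of MYC, and the MXD proteins, MNT and MGA oppose MYC. Of the 13 network genes, 12 had H3K4me3 past the limits at the TSS (92.3%, 95% Wilson interval 66.7 to 98.6%), against 59.1% of coding genes. The same number had H3K9Ac past the limits, against 58.5%, and 13 had H3K4me1, against 49.1%. None had H3K27me3 (1.22% of coding genes) or H3K36me3 (0.298%) past the limits, and CTCF was past them at 3, MYCN, MYCL and MXI1 (23.1%, 8.18 to 50.3%, against 13.6%). Without MYC itself, 11 of 12 had H3K4me3 past the limits (91.7%, 95% Wilson interval 64.6 to 98.5%). The list was chosen with earlier results of these data known, so these shares are descriptions only. MYCN, the relative used in neural progenitors, was the gene without H3K4me3. Its start had H3K4me1 (fold enrichment 4.96) and CTCF (11.5), and H3K9Ac of 4.20 that did not pass. It was also the only one of the 13 with a deposited H3K27me3 interval at the start, of 4873 bp and below the limits (fold enrichment 3.30, −log10 q-value 2.07). MYCL, the other relative, had H3K4me3 of 22.9, close to the 22.8 of MYC. MAX had 24.7 and the MAX-like partner gene MLX 29.7, the highest of the network, while MGA had 10.6, the lowest. The H3K4me3 interval of MYC, 5584 bp, was the widest of the 12, followed by MXI1 with 4428 bp, whereas for H3K9Ac MNT, with 19719 bp, was wider than MYC.

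**Figure D5:**
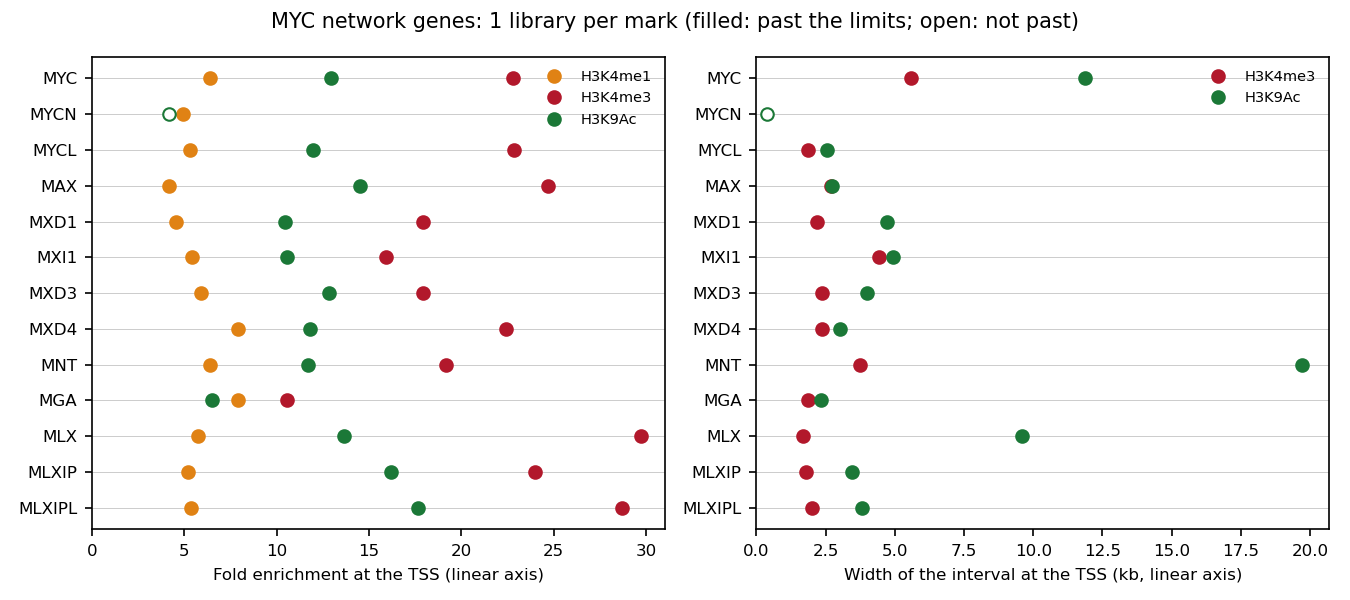
Fold enrichment (left, linear axis) and interval width in kb (right, linear axis) at the TSS of the 13 MYC network genes, 1 point per gene and mark, with the highest value where a start has several intervals. MYC lies within the others by H3K4me3 fold enrichment (22.8) and above them by H3K4me3 width (5584 bp), and MYCN has no H3K4me3 point.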

How the data were processed

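Broad-peak lists of 6 PIXUL-ChIP-seq libraries were used, 1 per mark. Per the Methods, the authors mapped reads to hg19 with BWA and ran MACS2 in broad mode with a cutoff of 0.1. The submitters' processing notes name BWA 0.7.12, MACS 1.4.2, SAMtools 0.1.19 and bcl2fastq 2.20.0.442. The deposited fold enrichment is a linear ratio over local background. Like the deposited −log10 p-value and −log10 q-value, it belongs to the whole interval, and the lists give no summit. The deposited score column was not used. The lists hold no read counts, so depth is unknown, and the number, width and q-value of intervals can all change with it. The labels give reads as single-end or paired-end, and the Methods as paired-end.

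The limits of the Methods were applied here, and CTCF, for which none is named, took those of the larger group. All intervals lay within the chromosome lengths of hg19. Genes came from GENCODE 44 on hg19, with the canonical TSS, or the 5′ end of genes without one. Intervals belonged to the region with at least 1 bp in it. The 95% Wilson intervals given with shares express counting error alone, take the counted items as independent and are no test. Overlaps were tested on simulated data and checked against bedtools 2.31.1. Copies were searched with minimap2 2.31, and pyfaidx 0.9.0.4, matplotlib 3.10.9, pandas 2.3.3 and scipy 1.17.1 ran under Python 3.11.15. The members and gene lists were chosen with earlier results of these data known. Named were the genes of the region with a mark past the limits at the start, the 5 genes that define it, the highest and widest interval of each mark, elements with 3 marks or more, all CTCF intervals past the limits and the MYC network. CASC8 and CASC19 were named for their place, and the genes within PVT1 after their values were seen. Alternatives were other limits, windows, merging and stitching distances.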

Additional observations from a re-analysis of the deposited data

How the results depend on the processing

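No paired analysis was possible because every antibody was used on 1 well. A value was taken as unchanged within 1.5 times, and by this measure 25 of 42 recomputed values for 12 results stayed and 17 moved. The changes with other limits follow from their construction, since more or fewer intervals enter. With all deposited intervals the region held 83 of H3K4me1, 7 of H3K4me3, 46 of H3K9Ac, 9 of H3K27me3, 52 of H3K36me3 and 35 of CTCF, 121 merged elements in place of 51, 29 distal elements with H3K4me1 and H3K9Ac in place of 4, and a widest H3K9Ac cluster of 78874 bp in place of 24762 bp. With the limits of the 2 groups of marks exchanged it held 11 of H3K4me1, 25 of H3K9Ac, 8 of H3K36me3 and 29 of CTCF. A fold enrichment limit raised 1.5 times left 3 H3K9Ac intervals and 1 distal element. Joining H3K9Ac within 20000 bp gave 55509 bp. With 1 mismatch, 10 CTCF intervals had the core motif, a count without a share of the whole list beside it. The 5 genes of the region and the 12 network genes with H3K4me3 stayed at these counts under each alternative run for them (other TSS windows, every transcript start and all deposited intervals). The unknown depth limits what can be said of marks below the limits, H3K36me3 and H3K27me3 above all.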
